A study of Mus musculus with 2 samples.

Results

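Scavenger receptor genes are the subject here, namely Cd36, Msr1, Scarb1, Scarb2, Marco, Colec12, Stab1, Cd163, Cd68 and Olr1. They were chosen by gene symbol from a fixed list, and the 10 symbols were found among the 32285 genes of the deposited matrix. Scavenger receptors are structurally diverse surface proteins that bind modified lipoproteins, other polyanions, dying cells and microbes and carry them into the cell. Macrophages use them to clear debris and to load lipid, and endothelium and fibroblasts carry some members of the family as well. In skin, macrophages around vessels take up material from blood and tissue fluid, and lymphatic endothelium is a known site of the receptor stabilin-1.

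The cells came from dorsal skin of untreated male WT mice that were 9 or 108 weeks old. The sort took F4/80-positive cells with high MHC class II, and the labels call them macrophages. Each age has 1 droplet-based single-cell library of 2 pooled mice, so that no group has a replicate and single mice cannot be told apart. The series is presented as a comparison of young with aged dermal macrophages.

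Both libraries lie in 1 matrix of UMI counts, where a UMI marks a single captured RNA molecule. A barcode suffix, 1 or 2, separates the libraries, but no label or file header ties a suffix to an age. Ages are therefore pooled below, no comparison of ages was made, and each suffix is given as a library of unknown age. The library with suffix 1 held 35821853 UMIs, and the library with suffix 2 held 20382748. Of 5257 barcodes, 3797 were kept (2396 with suffix 1 and 1401 with suffix 2), for which the limits were 500 genes or more, 1000 UMIs or more and a mitochondrial share of UMIs up to 10%. The kept cells had a median of 10870 UMIs, with library medians of 10761 and 11196. Across the libraries, 1 barcode sequence occurred in both, and 0 did so among the kept cells.

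The cell type label held for part of the cells. Clusters with general phagocyte markers took in 2039 of the 3797 cells, whereas 826 cells were fibroblast-like and 351 endothelial-like. Adgre1, which encodes F4/80, stood at 444 UMIs per 1000000 UMIs of the group (CPM) in the macrophage cells defined next. Endothelial-like cells held 35.8 CPM of it and fibroblast-like cells 4.15 CPM. H2-Ab1, an MHC class II gene, stood at 7907, 913 and 166 CPM in the same order. Levels of both sort markers were thus far lower in the endothelial-like and fibroblast-like cells that the sort had let through.

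Groups were named from fixed marker lists that hold none of the 10 genes, and the 10 genes took no part in the clustering. The 1366 macrophage cells fell into resident-like (565), Dcstamp-like (300), inflammatory-like (187), lipid-associated-like (174) and monocyte-like (140) groups. Endothelial-like cells were capillary (247), lymphatic (56) or venous (48). Some names depend on the clustering, and that of the capillary cells did not return in any of 6 other clusterings. Several phagocyte clusters met no name and are called by their leading genes. Values in brackets after a level or ratio are 95% intervals from the UMI sums (exact Poisson for a level, conditional binomial for a ratio). They cover counting error only, because cells of a library are not replicates, and no p-value was computed. A fold difference was counted from 2 times upward among genes with at least 10 CPM in either group.

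Macrophage cells held more of 5 members than fibroblast-like cells by 2 times or more and less of 1, of 8 members with enough UMIs. Over all 8582 genes compared, 18.4% were higher and 26.1% were lower by that rule. The higher members were Cd36, Msr1, Stab1, Cd163 and Cd68, and the lower member was Colec12. Scarb1 and Scarb2 stayed under 2 times, and Marco and Olr1 did not reach 10 CPM in either group. The median log2 ratio of the 8 members was 5.32, against -0.13 over all genes compared.

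Against endothelial-like cells, 3 of 8 members were higher in macrophage cells, where 16.6% of 8442 genes were, and 2 were lower, where 25.2% of genes were. Msr1, Cd163 and Cd68 were the higher members, and Cd36 and Scarb1 were the lower ones. The median log2 ratio was 0.23 for the members and -0.21 for all genes compared.

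Within the macrophage cells, 3 of 9 members were higher in the resident-like group than in the remaining 801 cells, beside 9.23% of 7165 genes. These were Colec12, Stab1 and Cd163. Olr1 was lower, as were 8.75% of genes, and Scarb1 was just under the limit at a log2 ratio of -0.9997 (-1.40 to -0.61). By library the Scarb1 ratio was -0.94 (-1.38 to -0.52) with suffix 1 and -1.37 (-2.59 to -0.33) with suffix 2. It thus passed the limit with suffix 2 alone. The median log2 ratio was 0.43 for the members and -0.03 for all genes. Of the 10 genes, 4 had their highest macrophage group level in resident-like cells, among them Marco with 3 UMIs. The share of all genes that were highest there was not computed, so that this count has no background to be read against.

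**Figure D1:**
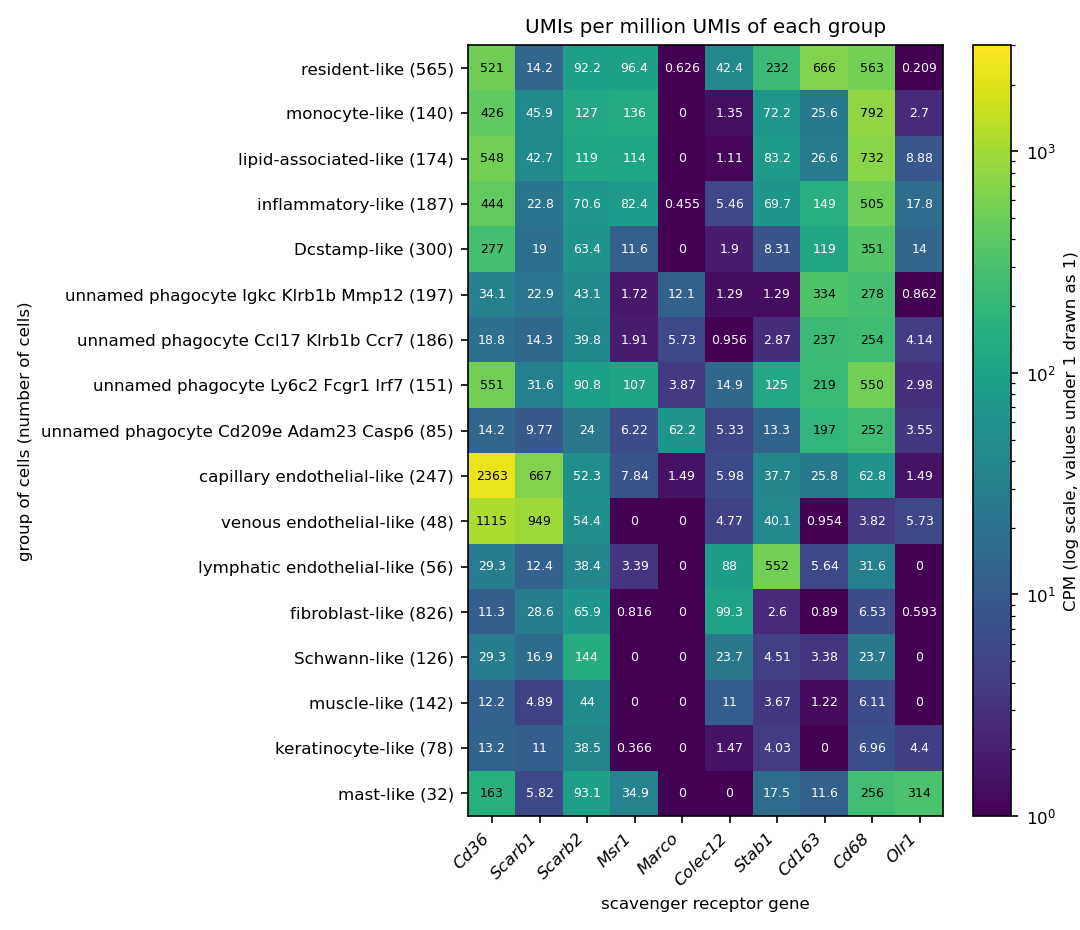
Level of each scavenger receptor gene (across) in each group of cells (down, with the number of cells), in CPM, printed in each field and coloured on a log scale. Capillary endothelial-like cells hold the highest Cd36 level (2363 CPM), lymphatic endothelial-like cells the highest Stab1 level (552 CPM) and resident-like cells the highest Cd163 level (666 CPM).

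Cd36, Scarb1 and Scarb2 form class B, whose members span the membrane at both ends. Cd36 takes up long-chain fatty acids and oxidised low-density lipoprotein. In capillary endothelial-like cells it stood at 2438 CPM (2357 to 2520.3) in the library with suffix 1 and 2279 CPM (2197 to 2364) in that with suffix 2. Venous endothelial-like cells held 1209 CPM (1108 to 1316) and 1048 CPM (969 to 1133), and lymphatic endothelial-like cells 45.2 CPM (29.3 to 66.8) and 2.998 CPM (0.0759 to 16.7), the latter from 1 UMI. In both libraries, then, blood vessel endothelium was high in Cd36 and lymphatic endothelium was low. The pooled level in capillary cells was 80.5 times (54.9 to 123) that in lymphatic cells and 4.53 times (4.33 to 4.75) that in resident-like cells. Taken over all macrophage and all endothelial-like cells, the log2 ratio was -1.94 (-2.001 to -1.88) with suffix 1 and -1.90 (-1.99 to -1.81) with suffix 2.

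Among macrophage groups, Cd36 reached 548 CPM (514 to 583) in lipid-associated-like, 521 CPM (501 to 542) in resident-like, 444 CPM (417 to 473) in inflammatory-like, 426 CPM (394 to 461) in monocyte-like and 277 CPM (261 to 293) in Dcstamp-like cells. The lipid-associated-like and resident-like levels overlapped, with a log2 ratio of 0.07 (-0.04 to 0.18), and so did the inflammatory-like and monocyte-like levels, at 0.06 (-0.09 to 0.21). By library the former order turns, since lipid-associated-like cells held 597 CPM with suffix 1 and 341 CPM with suffix 2, beside 518 and 532 CPM in resident-like cells. The monocyte-like level was 460.2 CPM in the library with suffix 1 and 126 CPM in that with suffix 2, which supplied 14 of the 140 cells. Unnamed phagocytes led by Igkc, Ccl17 or Cd209e stood at 34.1, 18.8 and 14.2 CPM, beside 13.2 CPM in keratinocyte-like cells. Those led by Igkc had 17.1 CPM (11.2 to 24.8) with suffix 1 and 70.6 CPM (52.8 to 92.6) with suffix 2, while the keratinocyte-like UMIs all came from suffix 1. Cd36 was thus lower in most of the unnamed phagocytes than in the macrophage groups, while the unnamed cluster led by Ly6c2 stood at 551 CPM, with 633 and 339 CPM in the libraries. Macrophage over fibroblast-like cells had a log2 ratio of 5.26 (5.03 to 5.50) for Cd36, with 4.81 (4.54 to 5.10) for suffix 1 and 6.03 (5.58 to 6.51) for suffix 2.

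Macrophage cells with no UMI of the 8 general endothelial markers, 1163 of 1366, held 446 CPM of Cd36 (434 to 458), against 432 CPM in all of them. Over the macrophage cells these markers summed to 21.9 CPM, with 0 of 8 at 10 CPM or more, Pecam1 highest at 7.32 CPM, and none at 0. Of the 16 phagocyte markers 13 lie outside the MHC class II pathway, and capillary cells with no UMI of these, 115 of 247, held 2551 CPM of Cd36 (2441 to 2665). Neither level was lower than in the whole group. In the 10 of 48 venous cells without those UMIs Cd36 was lower, at 673 CPM (549 to 816) beside 1115 CPM in the venous group.

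Scarb1 binds high-density lipoprotein and mediates cholesterol uptake from it. Its level in venous endothelial-like cells was 1024 CPM (932 to 1123) with suffix 1 and 896 CPM (822 to 974) with suffix 2. In capillary endothelial-like cells it was 774 CPM (729 to 821) and 547 CPM (507 to 590). Lymphatic endothelial-like cells held 12.4 CPM (6.197 to 22.2) pooled, with 10 of the 11 UMIs from suffix 1. Scarb1 was thus highest in blood vessel endothelium in both libraries, with a capillary level 53.7 times (29.96 to 108) the lymphatic level. In capillary cells without phagocyte UMIs the level was 668 CPM (612 to 727), and in the 10 such venous cells it was 699 CPM (573 to 845), beside 949 CPM in the venous group. All macrophage over all endothelial-like cells gave a log2 ratio of -4.68 (-4.87 to -4.50) with suffix 1 and -4.94 (-5.34 to -4.56) with suffix 2.

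Macrophage groups ranged from 14.2 CPM (11.0 to 18.0) of Scarb1 in resident-like cells to 45.9 CPM (35.6 to 58.1) in monocyte-like cells, beside 11.0 CPM (7.42 to 15.7) in keratinocyte-like cells. The lipid-associated-like level of 42.7 CPM (33.7 to 53.4) overlapped the monocyte-like level. In resident-like cells the library with suffix 2 gave 8.80 CPM (4.03 to 16.7). To compare shares of cells at equal depth, each cell was thinned to 2000 UMIs drawn at random. So thinned, 6.77% of 133 monocyte-like cells had a Scarb1 UMI, against 1.35% of 74 keratinocyte-like cells, with overlapping intervals. Against fibroblast-like cells, the direction for macrophage cells depended on the library. The log2 ratio was -0.27 (-0.49 to -0.06) pooled, -0.86 (-1.10 to -0.63) with suffix 1 and 1.04 (0.48 to 1.59) with suffix 2. A fibroblast-like cluster led by Prlr, with 80 of its 111 cells from suffix 1, held 326 of the 386 Scarb1 UMIs of fibroblast-like cells, at 96.1 CPM (85.9 to 107). The other fibroblast-like clusters with Scarb1 UMIs stood between 4.97 and 8.08 CPM. Fibroblast-like cells with no UMI of the 8 endothelial markers, 713 of 826, held 22.0 CPM (19.3 to 25.1).

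Scarb2, also called LIMP-2, sits in the lysosomal membrane and carries glucocerebrosidase there. In groups of 50 cells or more it ranged from 24.0 CPM (15.8 to 34.9) in the unnamed phagocytes led by Cd209e to 144 CPM (120.3 to 172) in Schwann-like cells. Monocyte-like cells held 127 CPM (109 to 146), lipid-associated-like cells 119 CPM (104 to 136) and resident-like cells 92.2 CPM (83.8 to 101). Fibroblast-like cells held 65.9 CPM (61.6 to 70.3). The Schwann-like, monocyte-like and lipid-associated-like levels overlapped in that order, but with suffix 2 alone monocyte-like cells held 53.1 CPM (22.9 to 105). Scarb2 passed 2 times in none of the 3 comparisons.

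**Figure D2:**
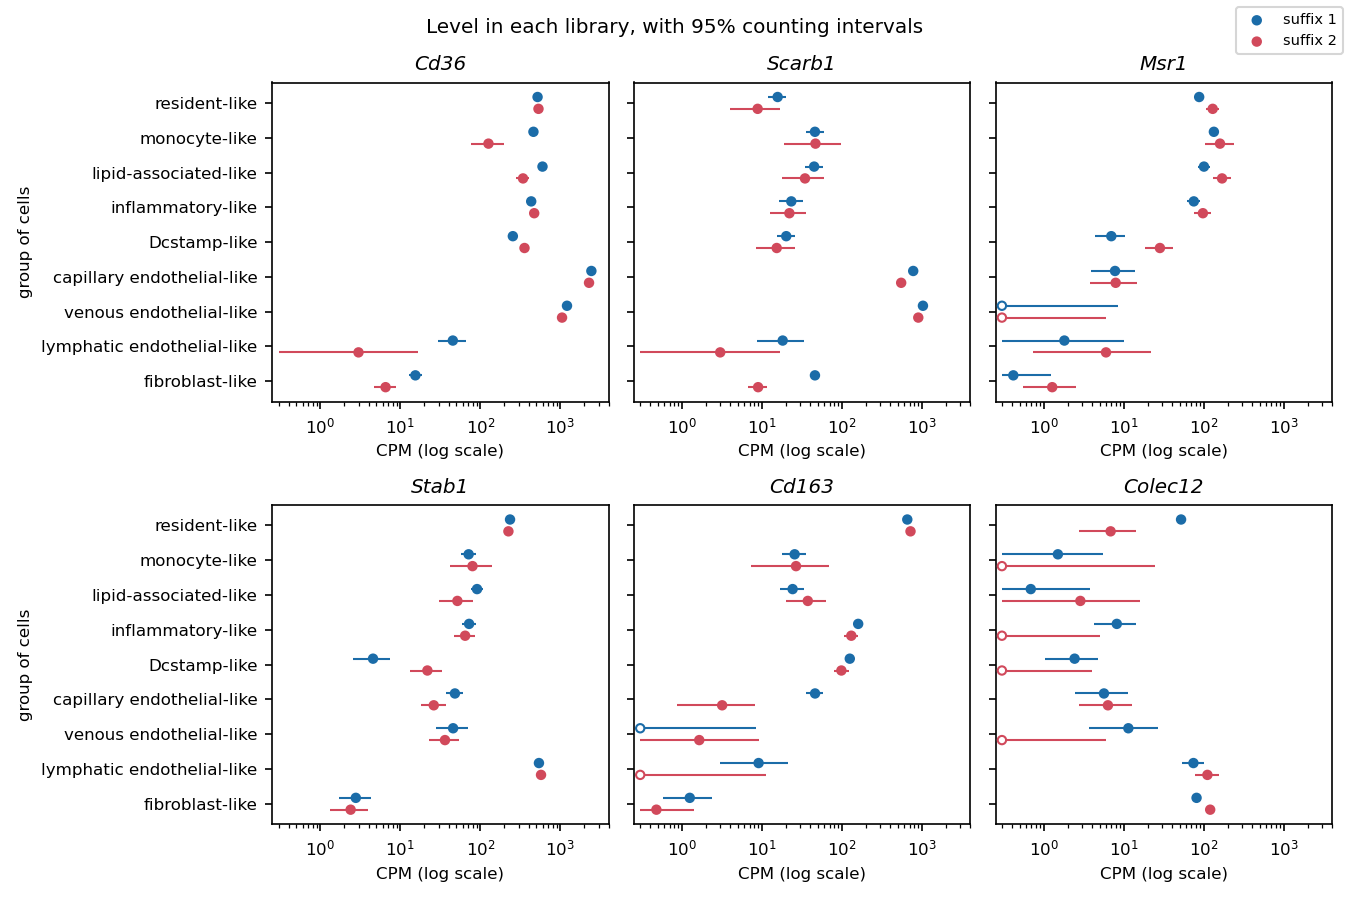
Level of 6 scavenger receptor genes in 9 groups of cells, in CPM on a log axis, for the library with suffix 1 (blue) and suffix 2 (red), with lines for 95% counting intervals and open points, drawn at the left end, for a sum of 0 UMIs. Cd163 in resident-like cells lies at 653 and 716 CPM in the libraries, whereas Colec12 in the same cells lies at 52.0 and 6.85 CPM.

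Msr1, Marco and Colec12 are class A receptors, trimers with a collagen-like stalk. Msr1, the classical macrophage receptor for acetylated lipoprotein, stood at 136 CPM (118 to 156) in monocyte-like, 114 CPM (98.7 to 130.4) in lipid-associated-like, 96.4 CPM (87.8 to 106) in resident-like and 82.4 CPM (70.9 to 95.3) in inflammatory-like cells. Each of these pooled levels overlapped the next in the order, which from monocyte-like to lipid-associated-like cells had a log2 ratio of 0.26 (-0.03 to 0.55). Resident-like cells gave 330 UMIs from 461 cells with suffix 1 and 132 from 104 cells with suffix 2. Of the 140 monocyte-like cells, 14 came from suffix 2. Dcstamp-like cells stood apart with 11.6 CPM (8.61 to 15.4), made up of 6.98 CPM (4.43 to 10.5) with suffix 1 and 28.3 CPM (18.5 to 41.5) with suffix 2. The resident-like level was 8.29 times (6.16 to 11.4) the Dcstamp-like level.

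Outside these groups and the unnamed phagocytes led by Ly6c2 (107 CPM), Msr1 was scarce in groups of 50 cells or more. Unnamed phagocytes led by Cd209e, Ccl17 or Igkc held 6.22, 1.91 and 1.72 CPM, and capillary endothelial-like cells 7.84 CPM (4.86 to 12.0). Fibroblast-like cells held 11 UMIs, or 0.816 CPM (0.407 to 1.46), and keratinocyte-like cells 1 UMI. Thinned to 2000 UMIs, 22.6% (15.8 to 30.6) of 133 monocyte-like cells and 17.1% (14.0 to 20.5) of 539 resident-like cells had a UMI of it. Among 74 keratinocyte-like cells there was none, and a count of 0 is given here the limit of 3 cells, or 4.05%. Median depths were 9987.5 UMIs in monocyte-like, 8766 in resident-like and 20003.5 in keratinocyte-like cells, and thinning left out 7, 26 and 4 cells. Unthinned, the shares were 59.3%, 44.6% and 1.28%. The log2 ratio of macrophage over fibroblast-like cells was 6.54 (5.69 to 7.55) for Msr1, and with suffix 1 alone it was 7.38 (5.83 to 9.67), from 3 fibroblast UMIs. With suffix 2 alone it was 6.27 (5.27 to 7.50), from 8 fibroblast UMIs. Over endothelial-like cells the pooled ratio was 3.87 (3.28 to 4.51).

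Marco, a class A receptor known from macrophages that meet bacteria and particles, gave 4 UMIs in the 1366 macrophage cells and 0 in fibroblast-like cells, where 3 counts would be 0.223 CPM. Its highest level lay in the unnamed phagocytes led by Cd209e, with 64.0 CPM (46.7 to 85.6) in the library with suffix 1 and 59.3 CPM (38.3 to 87.5) in that with suffix 2. There, 15.5% (8.51 to 25.01) of 84 thinned cells had a UMI, against none of the 74 keratinocyte-like cells. Unthinned, 30.6% of the 85 cells did, at a median depth of 13096 UMIs. The next group in order, led by Igkc, held 12.1 CPM (8.02 to 17.4), with 7.58 and 21.7 CPM in the libraries. Marco was therefore detected mainly in phagocytes outside the 5 named macrophage groups.

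Colec12, also called scavenger receptor with C-type lectin, is known from vascular and stromal cells. Fibroblast-like cells held 81.2 CPM (74.7 to 88.0) of it with suffix 1 and 120.2 CPM (112 to 129) with suffix 2. In lymphatic endothelial-like cells it stood at 74.2 CPM (53.2 to 101) and 111 CPM (78.1 to 153). Pooled, the fibroblast-like and lymphatic levels overlapped, with a log2 ratio of 0.17 (-0.16 to 0.52), and single fibroblast-like clusters ranged from 64.6 to 156 CPM. Capillary cells held 5.98 CPM (3.42 to 9.71), so that the endothelial groups differed in Colec12 as they did in Cd36, but in the other direction.

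Resident-like cells held 42.4 CPM (36.7 to 48.6) of Colec12. Compared with the remaining macrophages this was a log2 ratio of 4.10 (3.48 to 4.77). This level came almost entirely from the library with suffix 1. It was 52.0 CPM (44.96 to 59.8) from 196 UMIs with suffix 1 and 6.85 CPM (2.75 to 14.1) from 7 UMIs with suffix 2, where resident-like cells numbered 461 and 104. Between suffix 1 and suffix 2 the log2 ratio was 2.92 (1.85 to 4.26). Within the resident-like cells, the cluster led by Cd209f and Cd209g held 86.9 CPM (73.7 to 102) with suffix 1 and 4.95 CPM (0.6 to 17.9) with suffix 2, and the cluster led by Pf4 held 21.0 CPM (15.2 to 28.4) and 8.09 CPM (2.63 to 18.9).

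Fibroblast markers moved with this value. The 8 markers summed to 742 CPM in resident-like cells with suffix 1 and to 134 CPM with suffix 2. Pooled they summed to 612 CPM, with 4 of 8 at 10 CPM or more, Col1a1 highest at 217 CPM and none at 0. Per 100 UMIs of Col1a1, resident-like cells had 19.6 UMIs of Colec12 and fibroblast-like cells 0.33. By cluster and pooled over the libraries, fibroblast-like cells ranged from 0.0656 to 9.71. The highest was the cluster led by Prlr, and the next stood at 2.37. The resident-like cluster led by Pf4 lay inside that range at 9.44, and that led by Cd209f lay above it at 28.9. The 73 resident-like cells without a fibroblast marker UMI held 17.0 CPM (7.77 to 32.3) of Colec12 from 9 UMIs. The share of fibroblast RNA in the resident-like level was not tested further, and library and age cannot be told apart.

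Against fibroblast-like cells the log2 ratio of Colec12 in macrophage cells was -2.07 (-2.30 to -1.84) with suffix 1 and -5.57 (-6.79 to -4.59) with suffix 2. Both libraries thus gave the same direction at different sizes. Over endothelial-like cells the ratio was -0.21 (-0.65 to 0.24) with suffix 1 and -3.02 (-4.31 to -1.92) with suffix 2. After thinning, 18.4% (15.7 to 21.3) of 779 fibroblast-like cells and 8.16% (5.99 to 10.8) of 539 resident-like cells had a UMI. None of 74 keratinocyte-like cells did, at a median depth of 20003.5 UMIs beside 13108 in fibroblast-like cells. Thinning left out 47 fibroblast-like cells, and unthinned the shares were 61.6%, 19.3% and 3.85%.

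Stab1 encodes stabilin-1, a receptor of lymphatic endothelium and perivascular macrophages that takes up modified lipoprotein and matrix proteins. Lymphatic endothelial-like cells held 539 CPM (480 to 604) with suffix 1 and 573 CPM (494 to 660) with suffix 2. Resident-like cells held 235 CPM (220 to 251) and 224 CPM (196 to 255). The libraries overlapped in both groups, and the lymphatic level was 2.37 times (2.13 to 2.64) the resident-like level. The resident-like cluster led by Cd209f stood at 279 CPM (257 to 302) and that led by Pf4 at 194 CPM (177 to 211). Stab1 in resident-like over other macrophage cells had a log2 ratio of 2.34 (2.18 to 2.50), and in macrophage over fibroblast-like cells it was 5.37 (4.89 to 5.90).

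Next in the order of Stab1 came the unnamed phagocytes led by Ly6c2 with 125 CPM. The lipid-associated-like, monocyte-like and inflammatory-like cells followed at 83.2, 72.2 and 69.7 CPM, which overlapped each other, though with suffix 2 alone the lipid-associated-like level was 51.6 CPM (30.6 to 81.5). Dcstamp-like cells held 8.31 CPM (5.79 to 11.6), a 28.0 times (19.99 to 40.4) lower level than in resident-like cells, and fibroblast-like cells 2.60 CPM (1.81 to 3.61). In Dcstamp-like cells the libraries differed, with 4.55 CPM (2.55 to 7.51) for suffix 1 and 21.8 CPM (13.3 to 33.6) for suffix 2. Blood vessel endothelium was intermediate, with 37.7 CPM (30.7 to 45.8) in capillary and 40.1 CPM (28.9 to 54.2) in venous cells.

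The 17 lymphatic cells without a UMI of those 13 phagocyte markers held 480.2 CPM of Stab1 (350.2 to 643) and 192 CPM of Colec12 (114 to 304). The full phagocyte list summed to 2251 CPM in the 56 lymphatic cells, with 16 of 16 markers at 10 CPM or more and Cd74 highest at 851 CPM. The first interval includes the 552 CPM of Stab1 in all lymphatic cells, and the other lies above the 88.0 CPM of Colec12 in them. In the 12 lymphatic cells without a fibroblast marker UMI, Colec12 stood at 81.7 CPM (32.8 to 168), from 7 UMIs. Of the 30 lymphatic cells with a Colec12 UMI, 29 also had one of Stab1, or 96.7% of the Colec12 cells and 59.2% of the 49 Stab1 cells, beside 87.5% with Stab1 and 53.6% with Colec12 among all of them. Thinned to 2000 UMIs, 61.5% (47.0 to 74.7) of 52 lymphatic and 34.9% (30.9 to 39.1) of 539 resident-like cells had a Stab1 UMI, against 1.35% of 74 keratinocyte-like cells. Lymphatic cells had a median depth of 9323 UMIs, and thinning left out 4 of them.

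Cd163 is the receptor for complexes of haemoglobin and haptoglobin. Its level in resident-like cells was 653 CPM (627 to 679) with suffix 1 and 716 CPM (665 to 770) with suffix 2, from 461 and 104 cells. Unnamed phagocytes came next, from 334 CPM (311 to 359) in those led by Igkc to 197 CPM (172 to 225) in those led by Cd209e. The Igkc value differed by library, at 399 CPM (368 to 431) with suffix 1 and 196 CPM (165 to 230.3) with suffix 2. Inflammatory-like cells held 149 CPM (134 to 166), Dcstamp-like cells 119 CPM (109 to 130), lipid-associated-like cells 26.6 CPM (19.6 to 35.3) and monocyte-like cells 25.6 CPM (18.1 to 35.2). Relative to the rest of the macrophages the log2 ratio was 2.79 (2.67 to 2.91) with suffix 1 and 2.93 (2.70 to 3.16) with suffix 2. Cd163 thus set resident-like cells apart in both libraries, and pooled by 25.02 times (18.8 to 34.0) from the lipid-associated-like cells. Within them, the cluster led by Cd209f held 877 CPM (839 to 918) and that led by Pf4 490.4 CPM (464 to 518).

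After thinning, 55.8% (51.5 to 60.1) of 539 resident-like cells had a Cd163 UMI, against none of 74 keratinocyte-like cells. In fibroblast-like cells 12 UMIs gave 0.89 CPM (0.46 to 1.55). The log2 ratio of macrophage over fibroblast-like cells was 8.32 (7.51 to 9.27), and with suffix 2 alone 9.27 (7.72 to 11.55), from 3 fibroblast UMIs. With suffix 1 alone it was 7.81 (6.88 to 8.94), from 9 fibroblast UMIs.

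In capillary endothelial-like cells Cd163 gave 69 UMIs, at 45.9 CPM (35.5 to 58.6) with suffix 1 and 3.17 CPM (0.863 to 8.11) with suffix 2. Of the 247 cells, 15 held them. Phagocyte markers moved with it, summing to 14404 CPM with suffix 1 and 4587 CPM with suffix 2. Erythroid markers in these cells differed more, at 6501 and 59.4 CPM, and fibroblast markers stood at 224 and 74.5 CPM. Pooled, the phagocyte markers summed to 9776 CPM, with 15 of 16 at 10 CPM or more, Cd74 highest at 4032 CPM and none at 0. Per 100 UMIs of C1qa, capillary cells had 18.2 UMIs of Cd163 with suffix 1 and 7.02 with suffix 2 (4 of 57 UMIs), and resident-like cells 20.8 and 18.6. In the 115 capillary cells without phagocyte UMIs, Cd163 had 1 UMI and Msr1 1 UMI. The log2 ratio of Cd163 in macrophage over endothelial-like cells was 4.12 (3.79 to 4.47) pooled, 3.27 (2.93 to 3.63) with suffix 1 and 7.02 (5.79 to 8.65) with suffix 2.

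Cd68 encodes macrosialin, a glycoprotein of late endosomes and lysosomes that is widely used as a macrophage marker. Pooled, it was highest in monocyte-like cells at 792 CPM (747 to 839) and lipid-associated-like cells at 732 CPM (693 to 773), which overlapped at a log2 ratio of 0.11 (-0.002 to 0.23). The library with suffix 2 supplied 14 of the monocyte-like and 30 of the lipid-associated-like cells. Resident-like cells held 563 CPM (541 to 584), inflammatory-like cells 505 CPM (476 to 536) and Dcstamp-like cells 351 CPM (334 to 370). Unnamed phagocytes of 50 cells or more ranged from 252 to 549.9 CPM. Every phagocyte group of that size thus stood above capillary endothelial-like cells at 62.8 CPM (53.6 to 73.0), keratinocyte-like cells at 6.96 CPM (4.19 to 10.9) and fibroblast-like cells at 6.53 CPM (5.24 to 8.04). In the capillary cells without phagocyte UMIs Cd68 was 14.0 CPM (6.997 to 25.1), from 11 UMIs. The log2 ratio of macrophage cells was 6.36 (6.06 to 6.68) over fibroblast-like and 3.63 (3.43 to 3.84) over endothelial-like cells.

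Olr1, or LOX-1, is a lectin-like receptor for oxidised low-density lipoprotein. Resident-like cells gave 1 UMI of it in 565 cells, while the other macrophage cells gave 118, a log2 ratio of -5.87 (-11.18 to -3.36). In the library with suffix 2 alone, resident-like cells had 0 UMIs and the others 17, so that the log2 ratio is -1.43 or lower. Inflammatory-like cells held 17.8 CPM (12.6 to 24.3) and Dcstamp-like cells 14.0 CPM (10.7 to 18.1), which overlapped, and 53 of the 59 Dcstamp-like UMIs lay in the cluster led by Dcstamp. In Dcstamp-like cells the library with suffix 2 gave 5.44 CPM (1.77 to 12.7), from 5 UMIs. After thinning, 5.41% (2.62 to 9.72) of 185 inflammatory-like cells had a UMI, beside 0 of 74 in keratinocyte-like cells. The limit of 3 cells for the latter, 4.05%, lies inside the inflammatory-like interval. Unthinned, the shares were 11.2% and 6.41%. Keratinocyte-like cells held 4.40 CPM (2.27 to 7.68) of Olr1, which overlapped the levels of lipid-associated-like, monocyte-like and unnamed phagocyte cells.

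**Figure D3:**
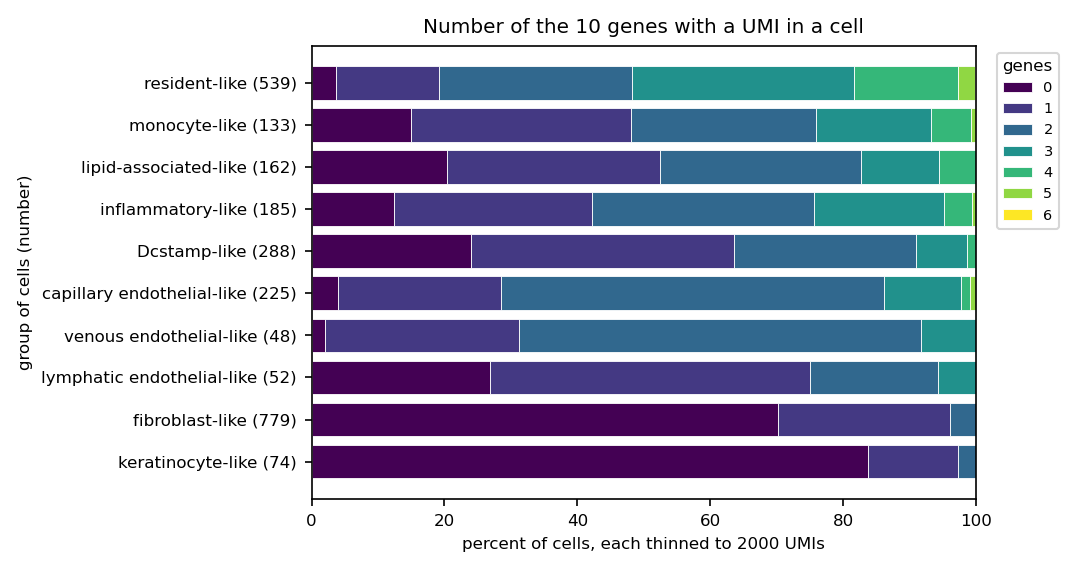
Percent of cells in each group (with the number of cells) in which 0 to 6 of the 10 scavenger receptor genes had a UMI, after each cell was thinned to 2000 UMIs. In resident-like cells 51.8% had 3 or more, against 13.8% in capillary endothelial-like cells and 0 in fibroblast-like and keratinocyte-like cells.

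Single cells often held several of the 10 genes. After thinning to 2000 UMIs, 31.4% of 1307 macrophage cells had a UMI of 3 or more, and 51.8% of 539 resident-like cells did. Dcstamp-like cells reached 9.03% and keratinocyte-like cells, the background, 0 of 74. In unthinned resident-like cells 266 of 565 held UMIs of both Cd163 and Stab1, or 66.8% of the Cd163 cells and 70.7% of the Stab1 cells. Among all resident-like cells Stab1 was found in 66.5% and Cd163 in 70.4%, so that cells with either gene held the other about as often as the whole group. In capillary cells 205 of 247 held both Cd36 and Scarb1, or 88.0% of the Cd36 cells and 96.2% of the Scarb1 cells, beside 86.2% with Scarb1 and 94.3% with Cd36 among all capillary cells.

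Across the 11 named groups of at least 50 cells, genes with a pattern most like each member were found by Pearson correlation of log levels. For Cd163 these were Gm10134 (r = 0.986), Cd209a (0.952) and F13a1 (0.951), of which the latter 2 are naming markers. Stab1 was nearest to Wnk1 (0.926), Lmo2 (0.905) and Serinc3 (0.889), and Colec12 to Rcn3 (0.929), Rock2 (0.924) and Tfpi (0.907). Cd36 was nearest to Csf2rb2 (0.968), Nus1 (0.957) and Cd93 (0.944), and Scarb1 to Flt1 (0.966), Aplnr (0.952) and Fabp4 (0.948). For Msr1 the nearest were Ms4a7 (0.995), Csf3r (0.993, a naming marker of neutrophils) and Ms4a6d (0.988), and for Cd68 Nckap1l (0.994), Cybb (0.993) and Cd300ld (0.992). Scarb2 was nearest to Tmed10 (0.957), Spcs2 (0.943) and Aamp (0.904). The groups share libraries and pooled mice, so that these values describe the groups and carry no test.

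Of a list of other scavenger and clearance receptors, 16 genes could be compared with fibroblast-like cells, with 5 higher and 7 lower in macrophage cells, beside 18.4% and 26.1% of all genes compared. Against endothelial-like cells 7 of 11 were higher and 2 lower, beside 16.6% and 25.2%. In resident-like over the other macrophage cells 4 of 12 were higher and 4 lower, beside 9.23% and 8.75%, and these shares of all genes hold for the lists that follow. Clec7a is not in the matrix under that symbol and was not analysed. Timd4, a receptor for phosphatidylserine on dying cells, had a log2 ratio of 3.79 (3.18 to 4.46) in resident-like over other macrophage cells. Axl, a kinase that engages dying cells through Gas6, had the opposite ratio of -2.43 (-2.74 to -2.14). Mrc1, the mannose receptor, stood at 2.01 (1.97 to 2.06), but it is among the markers that name resident-like cells. Cd14, a phagocyte marker here, and Lrp1, a large endocytic receptor, stood at -0.16 (-0.20 to -0.12) and -0.81 (-0.91 to -0.70).

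Lipid handling genes were higher in macrophage cells than in fibroblast-like cells for 12 of 14 genes (18.4% of all genes) and than in endothelial-like cells for 9 of 14 (16.6% of all genes), with 0 and 1 lower. In resident-like over other macrophage cells 1 was higher (9.23% of all genes) and 6 were lower (8.75%). Lpl, which releases fatty acids from lipoproteins, had a log2 ratio of -3.04 (-3.15 to -2.94), and the cholesterol exporter Abcg1 one of -1.91 (-2.11 to -1.72). Apoe, the lipoprotein component, was higher at 1.85 (1.83 to 1.87), and Npc2, a lysosomal cholesterol carrier, stood at -0.58 (-0.63 to -0.52). Resident-like cells were thus higher in Cd163, Stab1 and Apoe and lower in Lpl and Abcg1, and Cd36 differed by less than 2 times, at 0.43 (0.35 to 0.50).

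Genes of haem and iron handling, a list that also holds the plasma carriers Hp and Hpx, were higher in macrophage cells for 4 of 6 genes against fibroblast-like and 6 of 6 against endothelial-like cells, with 0 lower in either. Resident-like over other macrophage cells gave 2 higher and 2 lower of 6. Hmox1, which breaks down haem, was higher at a log2 ratio of 1.59 (1.55 to 1.62). The ferritin chains stood at -0.40 (-0.42 to -0.39) for Fth1 and 0.22 (0.20 to 0.23) for Ftl1. Hp, which encodes haptoglobin and is a monocyte marker here, had 2 UMIs in resident-like and 524 in the other cells, a ratio of -7.02 (-10.07 to -5.16).

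Lysosomal genes were higher in macrophage cells for 5 of 10 genes and lower for 2 against fibroblast-like cells, and higher for 7 and lower for 0 against endothelial-like cells. In resident-like over other macrophage cells 2 of 10 were higher and 1 was lower. Cd63, a tetraspanin of late endosomes, stood at 1.79 (1.72 to 1.85) and Psap, the precursor of the saposins, at -1.11 (-1.15 to -1.07). The proteases Ctsb and Lgmn stood at 0.60 (0.58 to 0.63) and 0.15 (0.11 to 0.19). Of these 4 genes, then, Cd63 and Psap passed 2 times in opposite directions, and Cd68 stood at 0.10 (0.03 to 0.17). By library the Cd68 ratio was 0.004 (-0.07 to 0.08) with suffix 1 and 0.44 (0.30 to 0.58) with suffix 2.

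Gene positions come from GENCODE vM21 on GRCm38. Cd36 (ENSMUSG00000002944) lies at chr5:17781690-17888801, minus strand, Stab1 (ENSMUSG00000042286) at chr14:31139013-31168641, minus strand, and Cd163 (ENSMUSG00000008845) at chr6:124304656-124330527, plus strand. Scarb1 (ENSMUSG00000037936), at chr5:125277087-125341094, minus strand, overlaps Gm42633 on the same strand. Colec12 (ENSMUSG00000036103) overlaps 4 annotated genes on its own strand, and the annotation behind the counts is not stated.

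Promoter sequences are shown because Cd163 and Stab1 were both high in resident-like cells while Cd68 was high in every phagocyte group of 50 cells or more. RefSeq promoters (GRCm38.p6, 300 bases around the start) were matched for 7 of 9 members searched, with Msr1 and Scarb1 missing. Colec12 was not searched. The Cd36 (chr5:17835847-17836146) and Scarb2 (chr5:92505608-92505907) promoters lie inside the GENCODE gene span and do not hold its start. The matched promoters were searched on both strands for GAGGAA, the core bound by PU.1, found in 28.3% of 32851 promoters. They were also searched for TGANTCA, bound by AP-1, found in 7.81%. Cd68 had 2 matches of each, Olr1 1 of each, Stab1 and Marco 1 of GAGGAA, and Cd36, Scarb2 and Cd163 none of either. A match is a description of the letters and does not show binding. The lines give the Cd68 (chr11:69666121-69666420, minus strand), Stab1 (chr14:31168592-31168891, minus strand) and Cd163 (chr6:124304401-124304700, plus strand) promoters, each in the direction of its gene, with matches in capitals.
Cd68: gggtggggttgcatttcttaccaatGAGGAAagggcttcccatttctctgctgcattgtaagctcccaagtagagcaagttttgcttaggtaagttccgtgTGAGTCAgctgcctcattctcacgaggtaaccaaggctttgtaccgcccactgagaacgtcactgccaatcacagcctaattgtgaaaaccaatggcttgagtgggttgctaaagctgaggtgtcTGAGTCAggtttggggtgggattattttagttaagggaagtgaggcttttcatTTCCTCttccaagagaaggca
Stab1: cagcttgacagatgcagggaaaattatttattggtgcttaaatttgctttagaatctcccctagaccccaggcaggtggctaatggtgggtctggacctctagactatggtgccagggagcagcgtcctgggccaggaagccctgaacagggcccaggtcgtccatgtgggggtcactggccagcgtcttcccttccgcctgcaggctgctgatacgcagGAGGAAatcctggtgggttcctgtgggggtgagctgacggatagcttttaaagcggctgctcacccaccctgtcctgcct
Cd163: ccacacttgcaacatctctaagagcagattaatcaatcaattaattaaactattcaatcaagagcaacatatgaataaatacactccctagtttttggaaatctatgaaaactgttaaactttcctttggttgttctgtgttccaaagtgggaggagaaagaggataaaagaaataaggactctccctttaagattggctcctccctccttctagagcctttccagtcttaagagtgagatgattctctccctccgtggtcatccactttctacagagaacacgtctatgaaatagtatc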

How the data were processed

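Per the file header and the labels, the authors aligned the reads to mm10 with Cell Ranger 4.0.0 and deposited whole-number UMI counts of both libraries in 1 matrix, without normalization and with no stated filter on barcodes. Depth and cell filters are given with the results. The members, the gene lists and the rule for named genes were chosen with earlier results of these data known, and the rule that names clusters was set after clusters had been seen.

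Python 3.11.15 was used, with numpy 2.4.6, scipy 1.17.1 and scanpy 1.11.5, and each cell was scaled to a sum of 10000 before taking logs. Members and list genes were left out, and 2000 variable genes, 30 principal components and 15 neighbours entered Leiden clustering (seed 1, resolution 1), run with igraph 0.11.9 and leidenalg 0.10.2, and 28 clusters came out. Compartments and groups were named from 27 marker lists by the mean log2 excess of a list over a reference (pseudocount 10 CPM). The reference was percentile 25 of the clusters, but for groups of phagocytes it was the median of the phagocyte clusters. A name needed at least 3 markers at 20 CPM and 2 times the reference, with a lead of 1 for a compartment and 0.5 for a group. For a group, the 10 leading genes of the cluster also had to hold more of its markers than of any other group's. Scrublet called 6 cells, so that doublets count as untreated. Levels are UMI sums per group in CPM, and a sum of 0 enters a ratio as 3 counts over the group. Shares of cells have exact Clopper-Pearson intervals and leave out 222 cells under 2000 UMIs, and for a share of 0 the limit of 3 cells is printed. The fold ratios with their intervals and the thinning were tested on simulated data, and the clustering and naming were not.

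Named genes are the 10 members, of each gene list the 3 highest in macrophage cells and the 2 with the largest fold of resident-like over other macrophage cells, and for each member with 20 CPM in some named group of 50 cells or more the 3 most correlated genes among those with 50 CPM in such a group. Fibroblast-like clusters, the clusters within resident-like cells and pairs of genes were described after their values were seen. Figures were drawn with matplotlib 3.10.9. Alternatives changed the cell filter, the resolution, the variable genes, the grouping, the averaging, the library, the doublets, the fold and the thinning. Ages were not compared, since no source ties a suffix to an age.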

Additional observations from a re-analysis of the deposited data

How the results depend on the processing

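Of the 15 ratios past 2 times, 188 of 190 values under the alternatives that yield ratios (which those of the fold and the thinning do not) kept their direction and stayed at 2 times or more, and the exceptions were both at resolution 0.5. There the 56 lymphatic cells alone carried an endothelial name, the log2 ratio of macrophage over endothelial-like cells was 3.96 for Cd36 and 1.01 for Scarb1, and 6 members were higher instead of 3. With the stricter cell filter too few endothelial-like cells were left, and no endothelial value was computed. In the library with suffix 2 alone, 8 members instead of 4 were highest in resident-like cells. That count includes Marco, which had 0 UMIs in every macrophage group there, and leaves out the monocyte-like and lipid-associated-like groups, which fall under 50 cells. The cause was not tested. No share over all genes was computed for any count under an alternative.

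The share of macrophage cells with 3 or more of the genes, 31.4%, was 25.6% with the stricter filter, 34.2% at resolution 2, 34.7% with 3000 variable genes, 40.9% with members and list genes allowed among them, 35.4% with groups from marker UMIs and 28.3% with suffix 2 alone. It was 11.3% with thinning to 1000 UMIs, 57.7% with thinning to 4000, and 24.2% when every phagocyte cluster counted as macrophage, an alternative chosen after seeing the data. Group make-up changed between clusterings (with members and list genes allowed, 868 instead of 1366 cells were macrophage and 576 instead of 565 resident-like), so that these shares describe other mixes of cells. Of the levels of single genes in groups, 748 values stayed inside the counting interval and 262 did not. In the 6 alternatives that cluster anew, no cluster was named capillary, so that capillary levels have no value there, and levels have none in 3 of the 6 for venous, in 5 for lipid-associated-like and in 1 for lymphatic cells.

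No paired analysis was possible because each age has 1 library of pooled mice and the suffixes carry no age. Depth limits Marco, Olr1 and Msr1 in fibroblast-like and endothelial-like cells, where sums of 0 to 24 UMIs set the ratios. It also limits Cd163 in fibroblast-like cells, with 12 UMIs. RNA of other cells in droplets was described only through UMIs of marker lists and was not removed. Such UMIs do not show whether they came from another cell or from the cell itself. With cells above 1 in 1000 UMIs on markers of another compartment left out (734 cells, 167 of the 351 endothelial-like), 5 members were still higher than in fibroblast-like cells, 4 instead of 3 than in endothelial-like cells, and 3 in resident-like than in the other macrophage cells. The shares of all genes were not computed for that set of cells.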

Other observations

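Mast-like cells, a group of 32 cells with a median depth of 3536 UMIs, held 54 UMIs of Olr1, or 314 CPM (236 to 410.03). The library with suffix 1 gave 483 CPM (352 to 646) in 12 cells and that with suffix 2 gave 114 CPM (52.3 to 217) in 20 cells, so that the libraries did not overlap and both stood above the macrophage groups. Phagocyte markers were also higher with suffix 1, at 15536 CPM against 7592 CPM, and fibroblast markers lower, at 494 CPM against 6549 CPM. The UMIs lay in 8 of the 32 cells. After thinning, which left out 10 cells, 27.3% (10.7 to 50.2) of 22 had a UMI, beside 0 of 74 keratinocyte-like cells. The 5 mast cell markers summed to 45037 CPM there with Mcpt4 highest, and the 16 phagocyte markers summed to 11901 CPM with none at 0. Olr1 reached 17.8 CPM in the highest macrophage group, and the source of the mast-like UMIs was not tested.

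An unnamed cluster of 169 cells led by Gm13889, Hbb-bt and Acta2 had high levels of both mural and endothelial markers. The 6 mural markers summed to 5576 CPM and the 8 endothelial markers to 3582 CPM, each with all markers at 10 CPM or more. It held 1613 CPM of Cd36, below the 2363 CPM of capillary cells by a log2 ratio of 0.55 (0.49 to 0.61), and 329 CPM of Scarb1. The unnamed phagocytes led by Ly6c2 and Irf7, 151 cells, held 14.9 CPM of Colec12, with 20.3 CPM (14.99 to 26.8) for suffix 1 and 1.06 CPM (0.0269 to 5.92) for suffix 2, the same direction between libraries as in resident-like cells. Schwann-like cells held 23.7 CPM of Colec12 (37.7 CPM with suffix 1 and 9.17 CPM with suffix 2) and no UMI of Msr1, Marco or Olr1, and a sum of 3 counts would be 3.38 CPM.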
